A study of Mus musculus with 6 samples.

Results

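Genes named Zfp encode zinc finger proteins, most of them candidate DNA-binding proteins, and their expression was compared here between chemotherapy-sensitive and chemotherapy-resistant leukemic blasts. The annotation held 365 protein-coding genes whose symbol is Zfp followed by digits alone, and 348 of them were in the deposited count table of 35932 genes. The 224 with a mean of at least 5 CPM (counts divided by the library total and rescaled) over all 6 libraries are described below as the expressed Zfp genes, and the other 124 were under that level. They were thus selected on their mean level over both groups together, which is given as a description only. All 224 also passed the low-count filter of the test, which kept 13414 genes.

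RNA was sequenced from bone marrow myeloid leukemic blasts of the genotype MLL-AF9+, a fusion oncogene that joins Kmt2a to Mllt3. The sensitive group had 3 libraries labelled as treated with vehicle, and the resistant group had 3 labelled as treated with cytarabine and doxorubicin, a nucleoside analog and an anthracycline. The labels give no dose, time, animal, age, sex or strain, nor how the fusion was introduced, and all 6 libraries share the fusion. Resistance and drug exposure coincide in every library and cannot be told apart, and with no stated origin of the replicates the p-values cover library-to-library spread alone, possibly of technical origin. Library totals ran from 22206341 to 31856009 counts.

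A classical (C2H2) zinc finger is a short fold held by a zinc ion between a pair of cysteines and a pair of histidines, and fingers in a row read successive bases of DNA. Many Zfp proteins also carry a KRAB box at the amino-terminal end. The KRAB box recruits Trim28 (KAP1), which brings the histone methyltransferase Setdb1 and heterochromatin proteins to the bound site, and this silences transposable elements and some genes. Genes of this kind arose by tandem duplication and lie in clusters. Other Zfp proteins have no KRAB box and act as activators, RNA-binding proteins or ubiquitin ligases.

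A minority of the expressed Zfp genes held a known motif, the E-box CACGTG, near the gene start. Of the 186 expressed Zfp genes with a RefSeq promoter (250 bases before to 50 after the gene start), 17 held this palindrome, which Myc-Max and Usf proteins bind. That is 9.14%, against 12.5% of the genes with a promoter sequence and a mean of at least 5 CPM. Of the 17, 8 were on chromosome 17, at 6 places in the genome, while 21 genes of that chromosome with a promoter sequence lacked the motif. The windows are printed because these genes include the largest rise and a fall. Each is 20 bases, the motif in capitals, and 20 bases, 5′ to 3′ on the gene's own strand, from RefSeq promoters on GRCm38.p6.
Zfp820 (chr17:21845853-21845898, minus strand): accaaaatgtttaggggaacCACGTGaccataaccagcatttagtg
Zfp947 (chr17:22166023-22166068, minus strand): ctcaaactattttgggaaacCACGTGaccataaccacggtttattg
Zfp946 (chr17:22424172-22424217, plus strand): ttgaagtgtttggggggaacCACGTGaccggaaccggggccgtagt
Zfp871 (chr17:32788351-32788396, minus strand): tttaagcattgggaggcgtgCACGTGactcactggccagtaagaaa
Zfp942 (chr17:21962493-21962538, minus strand): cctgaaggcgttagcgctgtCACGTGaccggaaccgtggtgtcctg
Zfp758 (chr17:22361404-22361449, plus strand): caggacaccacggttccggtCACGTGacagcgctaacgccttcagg
The window of Zfp942 has the same letters as that of Zfp944, and the window of Zfp758 the same as that of Zfp943. Zfp942 and Zfp943 share 1 stretch of the genome read on opposite strands, as do Zfp758 and Zfp944. The windows printed for Zfp942 and Zfp758 are therefore reverse complements, and all of these genes have the same double-stranded sequence there. The values of these genes are given with those of their chromosome further on.

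The summed level of the expressed Zfp genes overlapped between the groups. The summed level was 7093, 6928 and 6915 CPM in the sensitive libraries and 7065, 6656 and 6841 CPM in the resistant ones, after TMM scaling (a factor per library that offsets differences in composition). In all 6 libraries these genes took between 0.659% and 0.711% of the counts.

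Resistant blasts had 28 expressed Zfp genes higher and 48 lower, with 148 that did not pass, in edgeR's quasi-likelihood test at a Benjamini-Hochberg adjusted p of 0.05. The share called was 33.9%, against 39.2% of all genes tested and 42.1% of the 9949 genes tested with a mean of at least 5 CPM. By direction, 12.5% of the expressed Zfp genes were higher, against 18.5% of all genes tested and 20.4% of those with at least 5 CPM. The share that was lower was 21.4%, against 20.8% and 21.8%. The share lower was thus near the background, and the share higher was under it. Median levels were 19.0 CPM for the expressed Zfp genes, 26.8 for all genes tested and 46.1 for those with at least 5 CPM. The share higher also varied with level, as given further on, and the part of level in this difference was not tested. Of the 48 lower, Zfp773 (6.58 CPM of the library total in sensitive and 4.73 in resistant) and Zfp821 (7.0 and 4.55) reached the minimum of 5 CPM only through the sensitive group, where they are high, and so had to differ in that direction. The median log2 fold change (resistant over sensitive) was -0.019, against -0.005 over all genes tested, and the quartiles were -0.25 and 0.13.

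Single libraries weighed on the count of higher genes. It was 14 without the second sensitive library, 17 without the third sensitive library, and 18 without either the first or the third resistant library, and the share of all genes called higher also fell, to between 11.9% and 16.2% in those fits. In every one of 12 other fits, 13 genes stayed higher and 29 stayed lower.

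Most changes were small. Of the 76 called genes, 58 changed by at most 0.5 on the log2 scale. Only 1 rose and 3 fell by over 2-fold in the edgeR test, which is 1.79% of the expressed Zfp genes. Of all genes tested 7.79% passed that size (3.05% higher and 4.74% lower), and of those with at least 5 CPM 3.28% did (1.18% higher and 2.10% lower). The 6 libraries separated by group, with no overlap, for 43 genes that were higher and 68 that were lower in resistant blasts, or 49.6%, against 52.4% of all genes tested and 55.2% of those with at least 5 CPM. Among the 76 called genes the groups overlapped for Zfp871 and Zfp961 alone. These 2 were singled out after their values were seen.

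**Figure D1:**
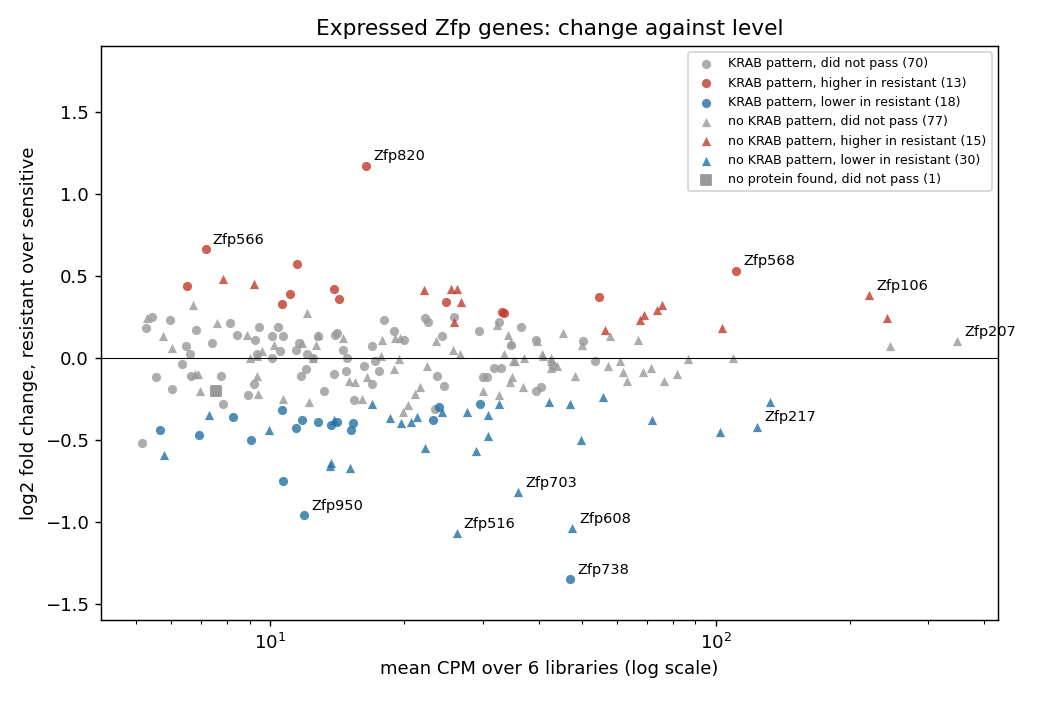
Each point is 1 of the 224 expressed Zfp genes, with its mean CPM over 6 libraries (log axis) against its log2 fold change, resistant over sensitive; circles have a KRAB pattern in the protein, triangles have none, the square is a gene with no protein found, and colour gives the test result. Most points lie within 0.5 of 0 at every level, and Zfp820, Zfp738, Zfp516 and Zfp608 stand beyond 1.

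The largest rise was in Zfp820 (ENSMUSG00000069743, chromosome 17), a KRAB gene with 12 fingers by pattern. It stood at 9.50, 10.2 and 10.7 CPM in sensitive and 25.1, 20.6 and 22.9 CPM in resistant libraries. Every resistant library was above every sensitive one by a wide gap. The log2 fold change was 1.17 ± 0.10 (SE, n = 3 per group; edgeR adjusted p = 1.33e-05).

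Zfp568 (ENSMUSG00000074221, chromosome 7) is a KRAB protein known for silencing a placental transcript of Igf2. Its level was 99.1, 89.5 and 85.7 CPM in sensitive and 124, 126 and 145 CPM in resistant libraries, with no overlap. Its log2 fold change was 0.53 ± 0.08 (edgeR adjusted p = 0.000419). Per kilobase of exon it was at 15.2 CPM, against 1.86 to 4.65 for the other 7 of the 8 largest rises.

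Zfp566 (ENSMUSG00000078768), another KRAB gene of chromosome 7, was at 5.81, 6.0 and 4.94 CPM in sensitive and 9.14, 7.78 and 9.44 CPM in resistant libraries. The groups did not overlap, and the log2 fold change was 0.66 ± 0.13 (edgeR adjusted p = 0.00299). Of the 50-base words of its transcripts, 15.6% also occur in another gene, most of them in Gm26920, which overlaps it on the same strand and had 67 to 128 counts per library. Zfp658, a KRAB gene with 21 fingers, was at 9.87, 8.67 and 9.37 CPM against 16.2, 13.9 and 11.2 CPM (0.57 ± 0.14, edgeR adjusted p = 0.00831). The third resistant library was the lowest of its group and still above all sensitive libraries.

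The other large rises were smaller than these. Zfp575 rose by 0.48, Zfp946 by 0.44 and Zfp639 by 0.42 on the log2 scale in the edgeR test. Zfp202, whose human counterpart represses genes of lipid transport, rose by 0.45. Of these 4, only Zfp639 kept its call in all 12 other fits, and Zfp575 lost it in 5, Zfp946 in 4 and Zfp202 in 3, each time when 1 library was left out.

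The largest fall was in Zfp738 (ENSMUSG00000048280, chromosome 13), a KRAB gene with 20 fingers. It stood at 70.3, 67.7 and 63.5 CPM in sensitive and 25.7, 27.8 and 25.6 CPM in resistant libraries. The 3 resistant libraries lay close together, far under the sensitive ones. The log2 fold change was -1.35 ± 0.07 (edgeR adjusted p = 3.73e-07). Of its 50-base words, 17.8% occur in another gene, mostly in Gm26587 on the opposite strand, and the strand setting of the counting is not given in the sources used here.

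Zfp516 (ENSMUSG00000058881, chromosome 18) is a factor known for activating thermogenic genes in brown fat. Its level was 36.9, 34.3 and 34.7 CPM in sensitive and 15.7, 17.3 and 17.6 CPM in resistant libraries, so the groups were far apart. Its log2 fold change was -1.07 ± 0.08 (edgeR adjusted p = 5.02e-06). None of its 50-base words occurs in another gene.

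Zfp608 (ENSMUSG00000052713), also on chromosome 18, is a large protein of 1511 residues with 1 finger by pattern. It was at 70.0, 60.4 and 61.4 CPM in sensitive and 29.9, 27.9 and 35.2 CPM in resistant libraries. The log2 fold change was -1.04 ± 0.10 (edgeR adjusted p = 1.86e-05), and the groups did not overlap. Zfp703 (chromosome 8), a co-repressor of the NET family whose human counterpart is amplified in luminal breast cancer, was at 45.2, 46.8 and 45.5 CPM against 22.2, 30.6 and 25.2 CPM. The sensitive libraries were tight and the resistant ones spread, and the log2 fold change was -0.82 ± 0.10 (edgeR adjusted p = 0.000170). Of the 50-base words of Zfp703, 10.6% occur in another gene, with Gm45371 on the opposite strand sharing the most.

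The KRAB genes Zfp950 and Zfp760 fell by 0.96 ± 0.17 and 0.75 ± 0.15 on the log2 scale (edgeR adjusted p = 0.00128 and 0.00285). Zfp950 was at 14.2, 17 and 15.8 CPM in sensitive and 10.3, 7.46 and 6.20 CPM in resistant libraries. Zfp760 was at 13.2, 14 and 13 CPM against 9.86, 7.55 and 6.28 CPM. In both, the first resistant library was the highest of its group and the third the lowest, and all were under the sensitive range. The same held for Zfp329 (-0.67 ± 0.11), while Zfp60 (-0.66 ± 0.16) was lowest in the third resistant library. The 8 largest falls kept their calls in all 12 other fits.

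**Figure D2:**
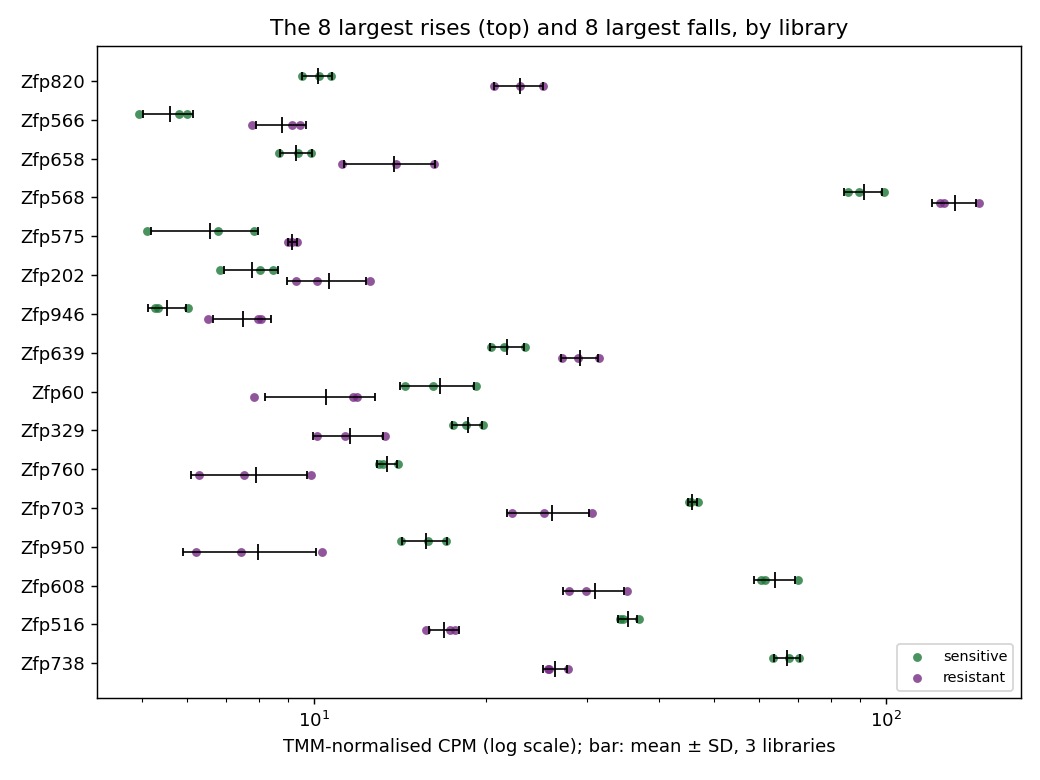
TMM-normalised CPM (log axis) of the 8 largest rises (top) and 8 largest falls among called expressed Zfp genes whose groups do not overlap; points are the 3 libraries of each group and bars the mean ± SD. Zfp738 went from 63.5 to 70.3 CPM in sensitive to 25.6 to 27.8 CPM in resistant libraries, and Zfp820 from 9.50 to 10.7 up to 20.6 to 25.1 CPM.

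Per kilobase of exon, the most abundant expressed Zfp genes were Zfp207 (52.2 CPM per kb), Zfp706 (49.3), Zfp422 (36.3) and Zfp110 (26.4). Zfp207 (BuGZ) binds Bub3 and spindle microtubules in mitosis. It was at 335, 328 and 344 CPM in sensitive and 428, 325 and 327 CPM in resistant libraries, so that only the first resistant library stood above the sensitive range. Its log2 fold change of 0.10 ± 0.09 did not pass (edgeR adjusted p = 0.421) and was -0.04 without that library. Zfp706 (0.07 ± 0.05) and Zfp110 (0.00 ± 0.06), an interactor of the neurotrophin receptor p75, did not pass either. Zfp422 fell, from 157, 138 and 135 CPM in sensitive to 123, 114 and 120 CPM in resistant libraries (-0.27 ± 0.07, edgeR adjusted p = 0.00950). Of its 50-base words, 17.7% occur in another gene, with Zfp955b sharing the most.

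Members with known roles in RNA moved in different directions. Zfp36 (tristetraprolin), which binds AU-rich elements and speeds the decay of inflammatory mRNAs, was at 24.8, 22.7 and 24.1 CPM in sensitive and 18.9, 19.1 and 17.8 CPM in resistant libraries. The log2 fold change was -0.36 ± 0.08 (edgeR adjusted p = 0.00554). Its relative Zfp36l2, which has a suffix and so is not among the 224, was at 352, 317 and 317 CPM against 364, 360 and 340 CPM and did not pass (edgeR adjusted p = 0.159).

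Zfp638, an RNA-binding protein also known to recruit the HUSH silencing complex to unintegrated retroviral DNA, was at 123, 113 and 118 CPM in sensitive and 97.3, 87.7 and 74.2 CPM in resistant libraries. It fell by 0.45 ± 0.09 (edgeR adjusted p = 0.00255), with the third resistant library lowest. Zfp106, an RNA-binding protein of motor neurons and muscle, was at 204, 189 and 185 CPM against 261, 251 and 240 CPM. It rose by 0.38 ± 0.06 (edgeR adjusted p = 0.000642), and 24.7% of its 50-base words occur in another gene, mostly in Gm26899 on the opposite strand. Zfp326, part of a complex that links splicing to elongation, was at 23.9 ± 1.85 and 27.9 ± 0.664 CPM (SD, n = 3). Its edgeR adjusted p of 0.0496 was near the threshold, and the call was lost in 10 of 12 other fits.

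Among regulators of transcription, Zfp217, a co-repressor partner of CtBP whose human counterpart is amplified in breast cancer, fell with a small spread. It was at 143, 140 and 144 CPM in sensitive and 105, 109 and 105 CPM in resistant libraries (-0.42 ± 0.05, edgeR adjusted p = 0.000117). Zfp384, whose human counterpart forms fusions in acute lymphoblastic leukemia, was at 91.6, 97.6 and 100 CPM against 104, 108 and 116 CPM (0.18 ± 0.06, edgeR adjusted p = 0.0359), a call lost in 5 of 12 other fits. Zfp281, a regulator of pluripotent cells, stood at 36.3, 34.6 and 34.6 CPM against 34.1, 28.1 and 27.8 CPM. Its log2 fold change of -0.23 did not pass (edgeR adjusted p = 0.0654), and it passed in 3 of 12 other fits. Its relative Zfp148 (-0.01, edgeR adjusted p = 0.958), the promoter-binding factor Zfp143 (-0.18, 0.0880) and Zfp335, needed for maturing T cells (-0.05, 0.607), did not pass.

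Of 3 ubiquitin or SUMO ligases named, Zfp91 and Zfp451 rose and Zfp598 did not pass. Zfp91, a ubiquitin ligase of the noncanonical NF-kappaB pathway, was at 229, 222 and 217 CPM in sensitive and 261, 242 and 285 CPM in resistant libraries (0.24 ± 0.06, edgeR adjusted p = 0.0132). The call was lost without the second or the third sensitive library. Zfp451, a SUMO ligase, rose by 0.17 ± 0.06 (edgeR adjusted p = 0.0448), and 8 of 12 other fits lost that call. Zfp598, the ligase that marks collided ribosomes (-0.02), and Zfp622, a ribosome biogenesis factor (0.08), did not pass. Nor did Zfp318 (0.08), which governs immunoglobulin D expression in B cells, or Zfp809 (-0.11), a KRAB protein that silences retroviruses through their primer binding site.

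A KRAB A box was found by sequence pattern in the longest annotated protein of 101 expressed Zfp genes, and 122 had none. The remaining gene, Zfp993, had no complete protein. Of the KRAB genes, 13 were higher and 18 lower (30.7% called, median log2 fold change 0.004), and of the others, 15 were higher and 30 lower (36.9% called, median -0.047). Both shares were under the 39.2% of all genes tested, and the difference between the classes was not tested. The shares depended on the pattern. With a wider KRAB pattern, added after seeing the data, 28.1% of 114 genes with it and 40.4% of 109 without it were called. The latter share was above the 39.2% of all genes tested and under the 42.1% of those with at least 5 CPM. KRAB genes had a median of 12 fingers and a median level of 13.9 CPM, against 7.5 fingers and 26.4 CPM in the others, so the classes also differed in depth of counting. The number of KRAB genes called dropped from 31 to 16 without the second sensitive, the third sensitive or the third resistant library.

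The 223 proteins had 0 to 36 C2H2 fingers by pattern, with a median of 10. Across these genes, which share the same 6 libraries, the number of fingers showed little relation to the log2 fold change (Spearman rho 0.03) and a weak one to the mean CPM (-0.26). The 5 proteins with no finger by this pattern were Zfp703, Zfp839, Zfp935, Zfp36 and Zfp330, named after their values were seen. Zfp36 and Zfp330 each had 2 matches to the CCCH pattern instead. The first 4 were lower in resistant blasts and Zfp330 (0.11) did not pass.

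The direction of the calls varied with the level. From 5 to 10 CPM, 4 genes were higher and 7 lower of 47. From 10 to 20 CPM, 6 were higher and 17 lower of 70, and from 20 to 50 CPM, 8 were higher and 19 lower of 75. From 50 CPM upward, 10 were higher and 5 lower of 32. The shares over all genes tested in the same level classes turned the same way, from 16.2% higher and 26.3% lower at 5 to 10 CPM to 26.1% higher and 18.9% lower from 50 CPM upward. At the edge of the selection, Zfp971 (5.16 CPM), Zfp229 (5.27 CPM) and Zfp784 (5.30 CPM) were just inside, and Zfp973 (4.98 CPM), Zfp109 (4.86 CPM) and Zfp963 (4.85 CPM) just outside.

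Reads can be shared by near-identical copies and by annotated genes that overlap in the genome. Exons of 72 expressed Zfp genes overlapped those of another annotated gene, on the same or the opposite strand. The median share of a gene's 50-base words found in another gene was 1.33%, and it was over 10% for 51 genes and over 50% for 11. Of the 51, 6 were higher and 12 lower, and of the 173 at or under 10%, 22 were higher and 36 lower. For Zfp966 (90.0%), Zfp456 (65.5%) and Zfp935 (100%), all called lower and named after their values were seen, the counts are uncertain. The gene sharing the most words was Zfp968 for Zfp966. It was Gm17039, which overlaps on the opposite strand, for Zfp456, and Gm49359, which overlaps on the same strand, for Zfp935.

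Expressed Zfp genes were found on 20 chromosomes, with 54 on chromosome 7, 31 on chromosome 17, 16 on chromosome 8 and 15 each on chromosomes 5 and 13. On chromosome 7, 6 were higher (11.1%) and 12 lower (22.2%), against 16.1% and 26% of its 739 genes with at least 5 CPM. On chromosome 13, none of 15 was higher and 6 were lower, with a median log2 fold change of -0.26 and values below 0 for 14 of 15. Of all 363 genes of chromosome 13 with at least 5 CPM, 22.9% were higher and 24.5% lower, with a median of -0.002. This chromosome was picked out after its values were seen.

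The 6 called genes of chromosome 13 were Zfp738 (-1.35), Zfp934 (-0.47), Zfp595 (-0.44), Zfp935 (-0.39), Zfp456 (-0.38) and Zfp346 (-0.37). Of its 15 genes, 9 shared over 10% of their 50-base words with another gene, and 4 of these were lower, while 2 of the other 6 were lower. Exons of Zfp934 and Zfp935 overlap on the same strand. Zfp934 and Zfp808 share words with each other, and so do Zfp65 and Zfp738. Zfp65 (-0.17) did not pass, although it lies next to Zfp738.

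**Figure D3:**
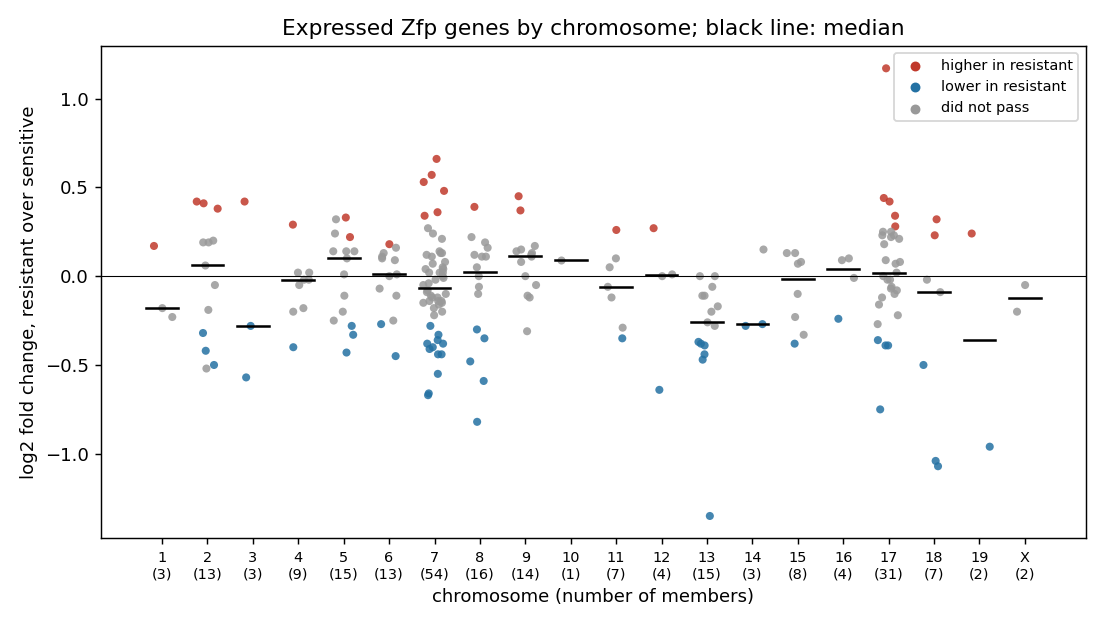
Log2 fold change, resistant over sensitive, of each expressed Zfp gene by chromosome, with the number of genes in brackets, the test result as colour and the median as a black line; points are spread sideways at random to be seen. On chromosome 13 the median is -0.26 and 14 of 15 points lie below 0, while chromosome 17 has points on both sides and a median of 0.02.

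Chromosome 17 held 25 KRAB genes among 31, with 5 higher (Zfp820, Zfp946, Zfp995, Zfp947, Zfp871) and 4 lower (Zfp760, Zfp758, Zfp523, Zfp54). These are 16.1% and 12.9%, against 16.0% higher and 24% lower of its 513 genes with at least 5 CPM. Its longest run of expressed Zfp genes with no other annotated protein-coding gene in between had 7 genes, with log2 fold changes of -0.75 in Zfp760, 0.18 in Zfp229, 1.17 in Zfp820, 0.42 in Zfp995, 0.25 in Zfp942, -0.08 in Zfp943 and 0.34 in Zfp947. The largest rise of all expressed Zfp genes thus lay 2 places from one of the largest falls. In the run of Zfp944 (0.23), Zfp758 (-0.39) and Zfp946 (0.44), the middle gene was lower, the last was higher and the first did not pass.

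Signs and calls of neighbouring genes were mixed. Over the whole genome, 79 expressed Zfp genes lay in 30 such runs with 49 neighbouring pairs. Both genes were higher in 2 pairs and both lower in 1, the calls were opposite in 3, and 1 gene alone was called in 21. The pair with both lower was Zfp935 and Zfp934, whose exons overlap on the same strand, so their calls may not be independent. In 22 pairs neither passed, and the signs were the same in 20 of 49. Of all 224 expressed Zfp genes 104 had values above 0 and 120 below, and signs also differ between values near 0 that did not pass. An opposite pair on chromosome 7 was Zfp566 (0.66) beside Zfp260 (-0.55).

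The E-box windows printed above belong to genes on both sides of 0. Of the 8 chromosome 17 genes with CACGTG, Zfp820, Zfp946, Zfp947 and Zfp871 were higher, Zfp758 was lower, and Zfp942, Zfp943 and Zfp944 did not pass. Of the 21 with a promoter sequence and no CACGTG, 1 was higher and 3 lower. The 4 genes with the same double-stranded window were Zfp758 (-0.39, edgeR adjusted p = 0.0256), Zfp943 (-0.08, 0.491), Zfp942 (0.25, 0.0850) and Zfp944 (0.23, 0.148). The differences between them were not tested.

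Over the genome, CACGTG was in the promoters of 6 of 24 expressed Zfp genes that were higher, 1 of 38 that were lower (2.63%) and 10 of 124 that did not pass (8.06%). Among all genes with a mean of at least 5 CPM it was in 14% of those higher and 10.6% of those lower. It was in 12.5% of all of that level, and in 8.09% of all 27025 genes with a promoter sequence. Of the 6, 4 are the chromosome 17 genes above, and the others are Zfp292 (0.29) and Zfp202 (0.45). This motif was picked out of 5 searched after the values were seen, and no test was made.

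The 4 other motifs were searched on both strands of the same window. The Ets motif CCGGAAG was in the promoters of 24.7% of expressed Zfp genes and of 23.8% of genes with at least 5 CPM. Some genes had several promoter sequences. The Yy1 motif AAGATGGCG was in 4.30% and 4.37%, and the CRE motif TGACGTCA in 3.76% and 3.81%. The palindromic core of the Nrf1 motif was in 4.30% and 2.78%. A match says only that the letters are present.

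Of a list of KRAB co-repressor and heterochromatin genes, named partners here for short, few were called. Of its 28 tested genes, 2 were higher and 3 lower, with a median log2 fold change of 0.001. The share called was 17.9%, against 39.2% of all genes tested and 44.9% of those from 50 CPM upward. The median level of the list was 127 CPM. Trim28, the KRAB co-repressor itself, was at 522, 495 and 509 CPM in sensitive and 525, 556 and 549 CPM in resistant libraries. The groups just failed to overlap, and the log2 fold change of 0.10 ± 0.05 did not pass (edgeR adjusted p = 0.149). Setdb1 was at 84.4, 79.1 and 81.1 CPM against 78.6, 80.2 and 71.5 CPM, with overlap (-0.09 ± 0.06, edgeR adjusted p = 0.295).

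The called partners included 3 of the HUSH complex, which spreads H3K9 methylation over transposable elements and recent insertions. Its scaffold Fam208a (Tasor) was at 58.5, 56.0 and 56.0 CPM in sensitive and 41.9, 36.9 and 25.9 CPM in resistant libraries. It fell by 0.70 ± 0.14 (edgeR adjusted p = 0.00257), and the resistant libraries were spread widely, the third being lowest. The methyl-lysine reader Mphosph8 (Mpp8) was at 42.5, 40.7 and 42.1 CPM against 36.5, 35.5 and 26.8 CPM (-0.34 ± 0.11, edgeR adjusted p = 0.0265). Periphilin (Pphln1) went the other way, from 102 ± 4.27 to 121 ± 3.62 CPM (SD, n = 3; 0.25 ± 0.06, edgeR adjusted p = 0.00481). Zfp638, which recruits HUSH, is among the falls given above.

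The remaining called partners were Cbx1 (HP1beta), a heterochromatin protein that binds methylated H3K9, and Rbbp7, a histone-binding subunit of NuRD. Cbx1 was at 98.5, 106 and 102 CPM in sensitive and 81.3, 82.1 and 79.8 CPM in resistant libraries (-0.33 ± 0.05, edgeR adjusted p = 0.000879). Rbbp7 was at 287, 270 and 259 CPM against 352, 327 and 348 CPM (0.33 ± 0.06, edgeR adjusted p = 0.00116). The other heterochromatin proteins Cbx3 (0.10) and Cbx5 (0.09) did not pass.

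**Figure D4:**
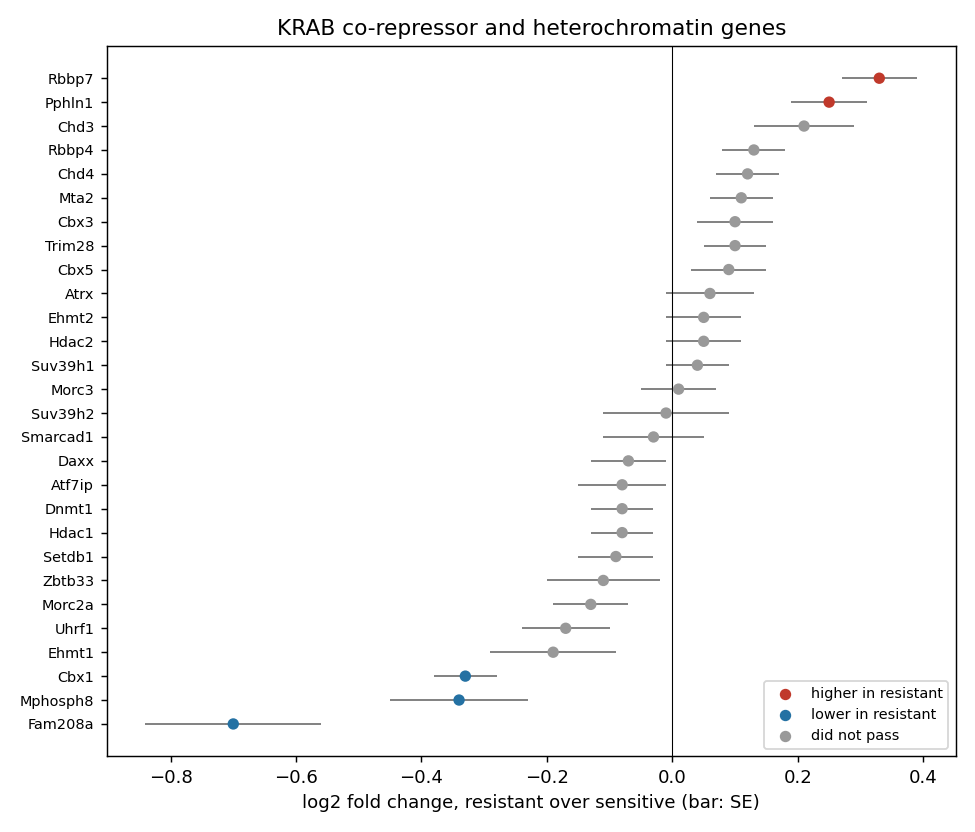
Log2 fold change, resistant over sensitive, with its SE as a bar, of the 28 tested KRAB co-repressor and heterochromatin genes, ordered by value and coloured by the test result. Fam208a at -0.70 stands apart from the others, which lie between -0.34 and 0.33, and Trim28 and Setdb1 are near 0.

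Markers of more mature marrow cells were lower in resistant blasts, while the sums of B cell and of stromal and endothelial markers overlapped between the groups. Summed erythroid markers were at 45.9 to 80.7 CPM in sensitive and 0.157 to 1.64 CPM in resistant libraries, with 6 of 6 tested genes lower. Mature neutrophil markers were at 135 to 159 CPM against 24.9 to 46.1 CPM (7 of 7 lower), and monocyte and macrophage markers at 863 to 955 CPM against 424 to 494 CPM (4 of 5 lower). B cell markers were at 38.1 to 41.0 and 37.8 to 40.6 CPM, T and NK cell markers at 2.85 to 4.0 and 1.67 to 2.65 CPM, megakaryocyte markers at 9.17 to 10.3 and 5.65 to 6.77 CPM, and stromal and endothelial markers at 0.801 to 1.29 and 0.546 to 0.910 CPM. Blast markers were at 3054 to 3589 CPM and 2596 to 3122 CPM (1 higher and 3 lower of 6), and no listed marker was at 0 in all libraries. The part of these shifts in the changes of Zfp genes was not tested, and in bulk RNA fewer cells of a type and less RNA per cell cannot be told apart.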

How the data were processed

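RNA-seq gene counts from 6 libraries were used. The authors deposited raw counts, whole numbers listed by Ensembl gene, and all columns were matched to samples by title. Per the submitters' processing notes TopHat2, RSEM and the build mm9 were used, without roles or versions. The sources used here do not give the annotation, the strand setting or the handling of shared reads, or say if the counts are rounded RSEM estimates. Symbols, chromosomes, exon lengths and proteins came from GENCODE M21 (31636 identifiers matched, 12993 of them tested), and promoters from RefSeq on GRCm38.p6. Both are of a later build than the counts, so no gene coordinates from the counting are given.

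Low counts were removed by filterByExpr, TMM factors were 0.978 to 1.016, and the test was that of edgeR 4.0.16 in R 4.3.3 (quasi-likelihood F test, group alone, Benjamini-Hochberg over 13414 genes, threshold 0.05). The spread between libraries of a group beyond counting noise, a single value fitted by edgeR over all genes tested, was 8.37% as a coefficient of variation. Values are TMM-normalised CPM, mean ± SD over 3 libraries, and selection used CPM of the column totals. The step was also run on simulated counts with 200 changed genes and a single spread for all genes. The data had 5260 called genes, so that run did not test the setting of the data.

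Fingers and KRAB boxes were counted on the longest complete translation in GENCODE M21, where a RefSeq protein had been planned. C2H2 fingers, CCCH fingers and the KRAB A box were found by regular expressions. Shared 50-base words were counted between transcripts.

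Named genes were the 8 largest rises and 8 largest falls among called genes with groups that do not overlap, the 4 highest levels per length, a panel with known roles, partner genes and the genes at the edge of the selection. Others are said to be named after their values were seen. The members, lists and motifs were chosen with earlier results of these data known. Alternatives were RLE factors, column totals alone, DESeq2 1.42.0, limma-voom (limma 3.58.1), no low-count filter, a block for the replicate number, leaving out each library in turn, a minimum of 2 or 10 CPM and, added after seeing the data, a wider KRAB pattern and a limit on shared words.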

Additional observations from a re-analysis of the deposited data

How the results depend on the processing

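With one library left out at a time, 14 to 33 expressed Zfp genes were higher and 33 to 51 lower. The higher count was 14 without sensitive library 2, 17 without sensitive library 3, and 18 without resistant library 1 or 3, with fewer samples in each fit. KRAB genes called ranged from 16 to 32 in these fits, genes called in the other zinc finger families from 22 to 37, and targets of Zfp36 called from 3 to 5. KRAB genes called were 19 when only genes with at most 10% shared words counted, where fewer genes remain. The median log2 fold change of expressed Zfp genes was -0.053 with column totals alone, where the median of all genes was -0.039, and -0.050 with a minimum of 2 CPM. Deviations from the group mean correlated at 0.037, -0.006 and -0.086 between libraries of equal replicate number. Between libraries of unequal number these values ran from -0.063 to 0.069. The labels do not say whether equal numbers share an animal or day, and these few values cannot decide it. With the replicate number as a block 26 genes were higher and 50 lower. Signs turned only for named genes near 0 that did not pass. Zfp148 was 0.00 with RLE factors and with DESeq2 and ran from -0.06 to 0.05 with one library left out, and Zfp110 was -0.03 with column totals and ran from -0.04 to 0.04. With one library left out, Zfp207 ran from -0.04 to 0.18, Zfp335 from -0.11 to 0.01 and Zfp598 from -0.07 to 0.01. The cause of these shifts was not tested. Of expressed Zfp genes from 5 to 10 CPM 23.4% were called, against 46.9% from 50 CPM upward, while over all genes tested the shares were 42.5% and 44.9%. The part of depth in this was not tested.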

Other observations

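Other zinc finger families with a mean of at least 5 CPM gave further values. Of 30 Zbtb genes, whose BTB domain pairs the protein with itself or others, 5 were higher and 8 lower in resistant blasts in the edgeR test. Of 15 Zscan and Zkscan genes, which carry a SCAN domain for pairing, 2 were higher and 6 lower. Of 15 Zc3h genes, whose CCCH fingers mostly bind RNA, 6 were higher and 3 lower, with a median log2 fold change of 0.129. Of 13 Zfp genes with a suffix after the digits, 2 were higher and 2 lower. Together 34 were called, and 22 without sensitive library 2. The share called over all genes tested was 39.2%, and these lists are too short for a statement about any family.

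Of 9 tested mRNAs known to be bound by Zfp36 family proteins, Pim1 and Dusp1 were higher, Ccl3 was lower and the other 6 did not reach the threshold. The share called was 33.3%, near the 39.2% of all genes tested. Pim1, a serine/threonine kinase, was at 10.7, 9.77 and 12.6 CPM in sensitive and 29.3, 25 and 27.0 CPM in resistant libraries (log2 fold change 1.30 ± 0.11, edgeR adjusted p = 1.21e-05). Dusp1, a phosphatase of MAP kinases, was at 3.44, 3.10 and 3.40 CPM against 5.74, 7.78 and 5.34 CPM (0.92 ± 0.17, edgeR adjusted p = 0.00205). The chemokine Ccl3 fell from 9.59 ± 0.769 to 6.49 ± 0.666 CPM (SD, n = 3; -0.56 ± 0.12, edgeR adjusted p = 0.00513). Tnf (0.07) and Myc (-0.10) did not pass. Without resistant library 2, 5 were called.

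Below the level of 5 CPM, 74 of 124 Zfp genes could be tested, of which 11 were higher and 16 lower (36.5% called), with a median log2 fold change of -0.184. Several of the genes called lower had their lowest resistant value in the third resistant library, among them Zfp950, Zfp760, Zfp329, Zfp60, Zfp638 and Fam208a, which were picked out after their values were seen. Other genes called lower had it in the first resistant library, such as Zfp516 and Zfp703, or in the second, such as Zfp608. The share of genes lowest in each library was not counted.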
